A study of Rattus norvegicus with 40 samples.

Results

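The miR-99, miR-100 and miR-125 families were followed in rat plasma on D2 and D9 after traumatic brain injury (TBI). Members were all rows of the count matrix named miR-99a, miR-99b, miR-100, miR-125a or miR-125b, whatever the arm or gene copy. The rule found 11 of 752 miRNAs: rno-miR-99a-5p, rno-miR-99a-3p, rno-miR-99b-5p, rno-miR-99b-3p, rno-miR-100-5p, rno-miR-100-3p, rno-miR-125a-5p, rno-miR-125a-3p, rno-miR-125b-5p, rno-miR-125b-1-3p and rno-miR-125b-2-3p. All 11 had reads, as did 581 miRNAs in all, and the species prefix rno is left out from here on. Plasma came from 20 adult male Sprague-Dawley rats, each sampled at the tail vein on both days, which gave 40 small RNA libraries. The 16 TBI rats received a lateral fluid-percussion injury, in which a fluid pulse strikes the exposed dura over 1 hemisphere, and the 4 sham rats were operated without it. Long-term video-EEG, recorded for 1 month in the sixth month after injury, divided the TBI rats into 7 that developed epilepsy (TBI+) and 9 that did not (TBI−), months after both plasma samples had been taken. The labels number separate rats, so the spread below is between rats.

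Both families are ancient and widely expressed, with high levels in the nervous system. The miR-125 family is the vertebrate counterpart of the nematode miRNA lin-4, which times development, and the miR-99/100 family is best known for repressing components of mTOR and insulin-like growth factor signaling. Their genes sit in clusters together with a let-7 gene and can be transcribed as 1 primary transcript. Each hairpin gives a 5p and a 3p arm, and usually 1 arm is loaded into Argonaute and kept while the other is degraded.

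The mature sequences are shown because the members are told apart by few bases and because the seed, which pairs with target mRNAs, defines the families. RefSeq (rat build GRCr8) gave a sequence for 10 of the 11 members, not for miR-99a-5p. The seed, bases 2 to 8 from the 5′ end, is in capitals. The 5p arms of the miR-99/100 family share 1 seed:
miR-99b-5p: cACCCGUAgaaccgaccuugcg
miR-100-5p: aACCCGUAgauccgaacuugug
Bases were counted from 1 at the 5′ end of miR-99b-5p. It differs from miR-100-5p by C1A, A11U, C16A and C21U, so 18 of 22 bases are identical and the seed is untouched. The miR-125 5p arms share another seed, which RefSeq also lists for miR-351-5p, a miRNA from the X chromosome that is not a member:
miR-125a-5p: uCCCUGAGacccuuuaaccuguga
miR-125b-5p: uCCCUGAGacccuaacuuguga
miR-351-5p: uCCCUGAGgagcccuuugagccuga
miR-125a-5p and miR-125b-5p are identical over their first 13 bases. Opposite to the 5p arms, the 6 matched 3p members carry 5 different seeds, and those that the results below turn on were:
miR-99b-3p: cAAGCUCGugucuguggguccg
miR-99a-3p: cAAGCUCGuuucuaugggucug
miR-125b-1-3p: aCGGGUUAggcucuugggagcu
miR-125b-2-3p: aCAAGUCAggcucuugggaccu
miR-99b-3p and miR-99a-3p have the same seed and differ by G10U, G14A and C21U, counted along miR-99b-3p.

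The members come from 3 clusters, all on the plus strand of GRCr8. Mir99b, Mirlet7e and Mir125a lie within 0.7 kb at chr1:67350064-67350759, inside the gene Spaca6. Mir99a, Mirlet7c1 and Mir125b2 span 45.3 kb at chr11:29687392-29732648. Mir100, Mirlet7a-2 and Mir125b1 span 51.8 kb at chr8:50798295-50850122. miR-125b-5p can come from Mir125b1 or Mir125b2 and has a single row in the counts, whereas its 3p arms have a row each.

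Library totals, the sum of all miRNA reads, ranged from 404542 to 2562083 on D2 and from 140636 to 2864893 on D9. The sham D9 libraries were the shallowest, with 140636 to 358202 reads. A count of 0 there still allows a level of up to 8.38 to 21.3 reads per 1000000 miRNA reads (CPM), taking 3 reads as the limit, compared with 1.17 to 7.42 CPM in the D2 libraries and 1.05 to 9.03 CPM in the TBI D9 libraries. Such limits cover counting error only.

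The 5p arms were the abundant members, and among the 3p arms only the miR-125b ones were well covered. On the scale of CPM per base of mature sequence, averaged over the 40 libraries, miR-99b-5p stood at 129, miR-125a-5p at 106, miR-100-5p at 60.9 and miR-125b-5p at 33.7. The passenger arms miR-125b-2-3p and miR-125b-1-3p followed at 7.53 and 2.99 CPM per base. miR-99b-3p and miR-99a-3p reached 0.545 and 0.501, miR-125a-3p 0.287, and miR-100-3p 0.0419. Neighbors in this order were not always apart. Reads of miR-99b-5p outnumbered those of miR-125a-5p in 4 of 4 sham and 14 of 16 TBI libraries on D2, but in 1 of 4 sham and 6 of 16 TBI libraries on D9. In mean level miR-99b-5p ranked 41st of 752 miRNAs, miR-125a-5p 43rd and miR-125b-5p 70th. miR-100-3p had reads in 16 of 40 libraries, never more than 6, and no fold change is given for it.

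miR-99a-5p and miR-100-5p were 1 signal. They collected 60437 and 61479 reads, and their counts differed by −1.03% to 8.92% in single libraries, so that the rows cannot be told apart and each call on them counts as 1 observation. The counts of miR-125b-5p have another limit. The RefSeq table lists a mature miRNA on the strand opposite to its entry at Mir125b2, and of 88 miRNAs whose every listed copy has such a partner 85 (96.6%) had no read in any library, compared with 69 of 592 (11.7%) without one. miR-125b-5p was among the other 3, with 33218 reads, and let-7e-5p, encoded between Mir99b and Mir125a, was among the 85.

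TBI was compared with sham on each day to ask whether injury changed the plasma level. On D2, miR-99b-3p, the minor arm of Mir99b, had the only member change that came close to the threshold. Its level was 3.37, 9.17, 2.98 and 8.26 CPM in sham rats 1 to 4, from 2, 12, 2 and 11 reads. In TBI+ rats the lowest, median and highest levels were 9.92, 15.2 and 20.7 CPM, and in TBI− rats 7.26, 12.1 and 18.2 CPM. The groups overlapped narrowly, since 15 of 16 TBI rats lay above all 4 sham rats. The mean was 5.94 ± 3.23 CPM in sham (SD, n = 4), 14.8 ± 3.52 CPM in TBI+ (n = 7) and 12.5 ± 3.03 CPM in TBI− (n = 9). edgeR's quasi-likelihood test gave a log2 fold change of 1.17 for TBI against sham (SE 0.37, Benjamini-Hochberg adjusted p = 0.0502), just above the threshold of 0.05. It was 1.27 in TBI+ (adjusted p = 0.0861) and 1.09 in TBI− (adjusted p = 0.137), both against the same sham rats. DESeq2 called it upregulated in all 3 comparisons, with adjusted p of 0.01725 in TBI, 0.01765 in TBI+ and 0.04975 in TBI−, the last just below the threshold. The adjusted p for TBI against sham ran from 0.0107 to 0.447 over the alternatives tried.

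**Figure D1:**
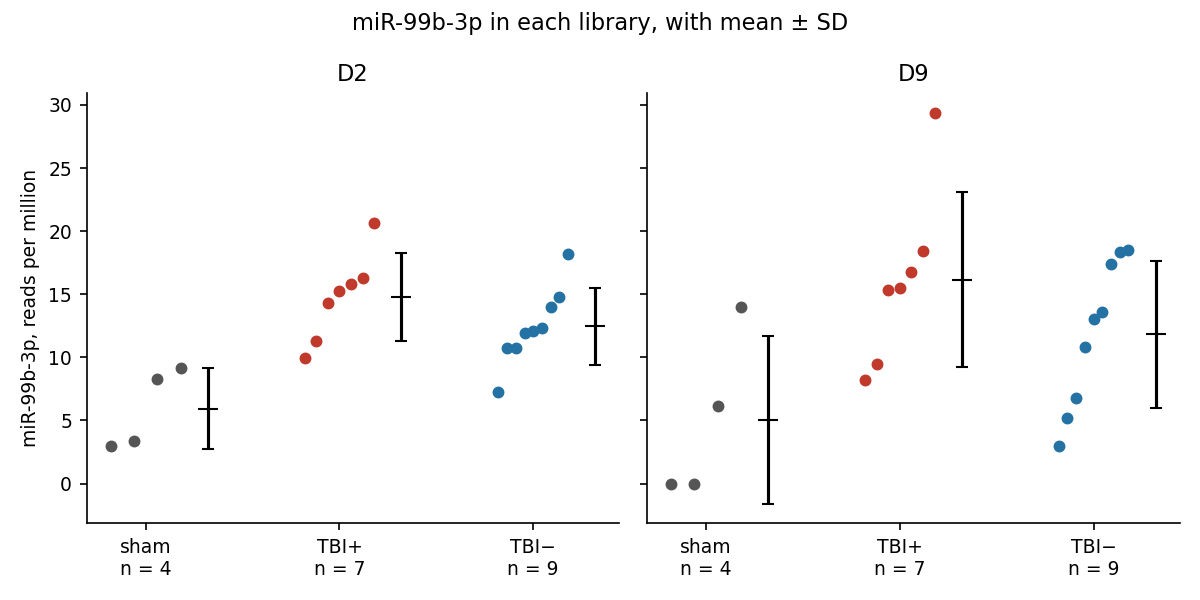
miR-99b-3p in CPM on D2 (left) and D9 (right), 1 point per library, with mean ± SD beside the points of each group (sham n = 4, TBI+ n = 7, TBI− n = 9). On D2 the sham rats sit between 2.98 and 9.17 CPM and 15 of 16 TBI rats lie above them, while on D9 the groups overlap.

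In the count of calls, 0 of 11 members passed the adjusted threshold on D2 in TBI, TBI+ or TBI− against sham by edgeR, where 6.19%, 3.19% and 6.19% of all tested miRNAs were called. At an unadjusted p below 0.05 there was 1 member in each, miR-99b-3p, beside 18.2%, 16.5% and 15.9% of all miRNAs. DESeq2 called the same 1 in each, beside 8.14%, 6.02% and 7.26%, so 1 of 11 was near the background share. Of the other 10, the major arm miR-99b-5p had a log2 fold change of 0.40 in TBI (95% interval −0.06 to 0.87), miR-125a-5p 0.29 (−0.11 to 0.70), miR-100-5p 0.07 (−0.39 to 0.52) and miR-125b-5p 0.01 (−0.45 to 0.48). The median log2 fold change over the members was 0.06, beside 0.09 over all miRNAs tested. The order turned with DESeq2 (0.13 and 0.09) and filterByExpr (0.13 and 0.08). When leaving out each sham rat the member median ran from −0.09 to 0.19. When scaled by library totals alone the medians were −0.06 and −0.02. Neuronal markers moved with injury on D2. Of 5 tested, 3 were upregulated in TBI against sham by edgeR, namely miR-124-3p, miR-124-5p and miR-129-5p. Their part in the member values was not tested. In plasma, a change in the number of releasing cells and a change in the RNA released per cell cannot be told apart. The library labels carry running numbers, which were grouped here into 3 runs. The labels do not name these runs, and what they stand for is not given. No TBI− library shares a run with the sham libraries of its day, so run and group cannot be told apart for TBI−. Within the 1 run that holds the 4 sham and TBI+ rats 1 to 4 on D2, the log2 fold change of miR-99b-3p was 1.03 (adjusted p = 0.447).

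On D9 the level of miR-99b-3p was 0, 6.17, 0 and 13.96 CPM in sham rats 1 to 4, which is at most 5 reads. TBI+ rats ranged from 8.17 over a median of 15.5 to 29.4 CPM, and TBI− rats from 3.01 over 13.0 to 18.5 CPM. All 16 TBI libraries held reads but the sham libraries were too shallow to place their level, and the log2 fold change of 1.20 had an adjusted p of 0.42 by edgeR. Of the 11 members, 0 were called on D9 in TBI, TBI+ or TBI− against sham, beside 3.51%, 1.85% and 4.81% of all miRNAs. The unadjusted p was below 0.05 for 0, 1 and 0 members, beside 15.9%, 15.9% and 12.4% of all miRNAs, the 1 being miR-99b-3p in TBI+. DESeq2 called 0 in each, beside 5.18%, 2.03% and 4.07%. The 5p arms gave log2 fold changes of 0.19 for miR-99b-5p (−0.48 to 0.86), −0.01 for miR-125a-5p (−0.61 to 0.58), −0.14 for miR-100-5p (−0.86 to 0.58) and −0.47 for miR-125b-5p (−1.14 to 0.20). All 4 intervals were wider than on D2.

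TBI+ and TBI− were compared to ask whether the members set apart the rats that later developed epilepsy. No member did on either day. edgeR called 0 of 11 members on D2 and 0 on D9, and 0% of all miRNAs tested on each day. At an unadjusted p below 0.05 there were 0 members on either day, beside 6.73% of all miRNAs on D2 and 4.07% on D9. DESeq2 called 0 members and 0% of all miRNAs on each day. For miR-99b-5p the log2 fold change of TBI+ against TBI− was −0.06 on D2 (95% interval −0.47 to 0.35) and −0.01 on D9 (−0.62 to 0.59). For miR-99b-3p it was 0.19 on D2 (−0.41 to 0.79) and 0.48 on D9 (−0.35 to 1.30). miR-125b-1-3p had the lowest unadjusted p, 0.0735 on D2, with a log2 fold change of −0.39 (−0.81 to 0.04). These intervals do not show that the groups were alike.

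The clearest change was between the days. miR-99b-5p, the major arm of Mir99b, was lower on D9 than on D2 in 20 of 20 rats. Its level in sham rats 1 to 4 went from 2226, 3785, 3307 and 3773 CPM on D2 to 1714, 1277, 1029 and 2864 CPM on D9. In TBI+ rats the lowest, median and highest levels were 2818, 3402 and 6960 CPM on D2 and 864, 1913 and 2617 CPM on D9. In TBI− rats they were 2820, 3660 and 6324 CPM on D2 and 705, 1912 and 2786 CPM on D9. In both injured groups every D2 library lay above every D9 library, and only in sham did the days overlap. edgeR's test of D9 against D2 gave a log2 fold change of −1.12 in TBI+ (SE 0.28, adjusted p = 0.00358), −1.15 in TBI− (SE 0.24, adjusted p = 0.000469) and −0.92 in sham (SE 0.37, adjusted p = 0.135). The hemolysis index, described below, was also higher on D9 in 20 of 20 rats. With it as a covariate the same test gave −0.71 in TBI+ (adjusted p = 0.261) and −0.76 in TBI− (adjusted p = 0.161), so neither call held.

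**Figure D2:**
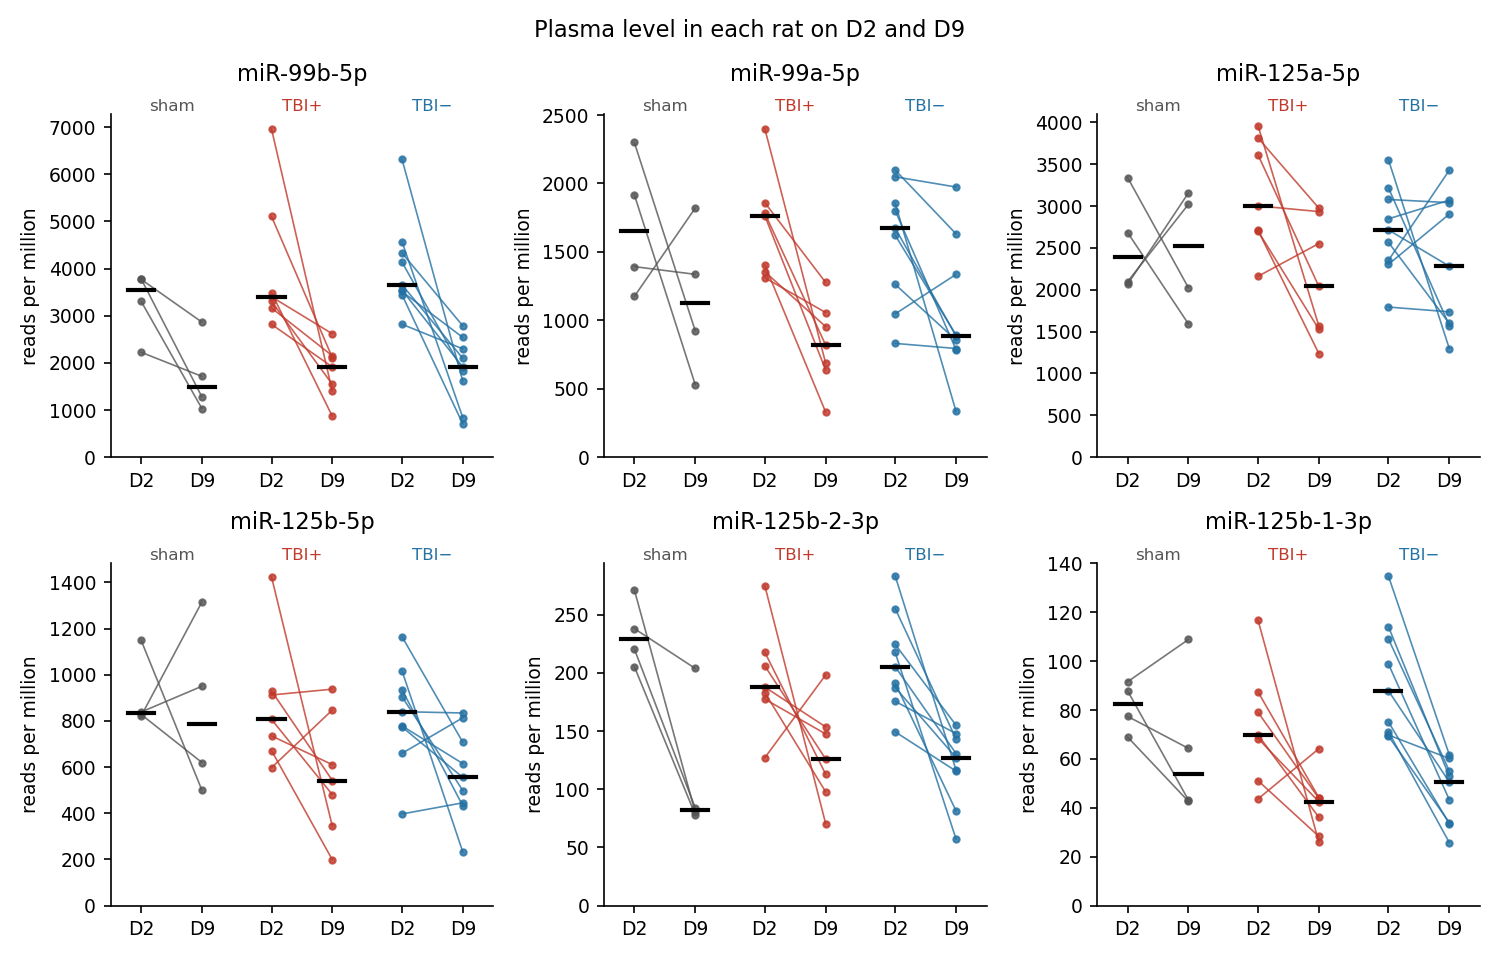
Levels in CPM (vertical axes) of 6 members on D2 and D9, with a line per rat and a black bar at the group median (sham n = 4, TBI+ n = 7, TBI− n = 9). miR-99b-5p falls along every line, whereas lines of miR-125a-5p and miR-125b-5p run in both directions.

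Within the miR-99/100 family the near-identical pair followed in TBI+, and in TBI− only under some alternatives (2 of 9 for miR-100-5p). miR-100-5p had 1206, 1926, 1410 and 2285 CPM in sham rats 1 to 4 on D2, and 1820, 537, 1336 and 944 CPM on D9, so that sham rat 1 went against the other 3. In TBI+ rats it ranged from 1329 over a median of 1773 to 2430 CPM on D2 and from 348 over 837 to 1302 CPM on D9, without overlap. In TBI− rats the range was 846 to 2117 CPM on D2 (median 1678) and 364 to 2005 CPM on D9 (median 898), with much overlap. The pair was downregulated in TBI+, with log2 fold changes of −0.96 for miR-100-5p (SE 0.30, adjusted p = 0.0238) and −0.98 for miR-99a-5p (SE 0.31, adjusted p = 0.0225). For miR-100-5p the call was made in 5 of 8 alternatives, with log2 fold changes from −0.56 to −1.03. It was lost with the hemolysis index, the run or miR-451-5p as a covariate, all described below. In TBI− the values were −0.58 (adjusted p = 0.121) and −0.59 (adjusted p = 0.117), which did not pass. The pair was lower on D9 in 8 of 9 TBI− rats. It passed in TBI− with the rat as a block, which pairs the days, and without the libraries under 500000 reads, as given below. The difference between TBI+ and TBI− in this day change was not tested.

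In the miR-125 family, the calls between the days fell on the 3p arms of miR-125b, the passenger strands: miR-125b-1-3p in both injured groups and miR-125b-2-3p in TBI−. The third passenger arm, miR-125a-3p, was not called (log2 fold change −0.15 in TBI+ and −0.75 in TBI−), nor were the 5p arms, which carry the family seed. The arms were not tested against each other. miR-125b-1-3p, from Mir125b1, had 69.0, 87.9, 77.4 and 91.6 CPM in sham rats 1 to 4 on D2 and 42.7, 43.2, 64.3 and 108.9 CPM on D9. Its range in TBI+ was 43.7 to 116.8 CPM on D2 (median 69.9) and 25.9 to 64.2 CPM on D9 (median 42.5), and in TBI− 69.4 to 135 CPM (median 87.9) and 25.8 to 61.7 CPM (median 50.6). The days did not overlap in TBI−. The log2 fold change was −1.03 in TBI− (SE 0.23, adjusted p = 0.000804), −0.82 in TBI+ (SE 0.26, adjusted p = 0.0255) and −0.27 in sham (adjusted p = 0.802). The TBI+ call was made in 5 of 9 alternatives, with log2 fold changes from −0.26 to −0.89. It was lost with the rat as a block, and with the run, the hemolysis index or miR-451-5p as a covariate, all described below.

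miR-125b-2-3p, from Mir125b2, stood at 205, 271, 220 and 238 CPM in sham rats 1 to 4 on D2 and at 78.2, 80.2, 84.1 and 204 CPM on D9. TBI− rats had 149 to 283 CPM on D2 (median 205) and 57.2 to 155 CPM on D9 (median 127.2), and TBI+ rats reached 275 CPM on D2 (median 188) and 198 CPM on D9. It was lower on D9 in 19 of 20 rats. It was downregulated in TBI− (log2 fold change −0.84, SE 0.22, adjusted p = 0.00325), while −0.56 in TBI+ (adjusted p = 0.108) and −1.02 in sham (SE 0.34, adjusted p = 0.059) did not pass. DESeq2 called the TBI+ value (−0.62, adjusted p = 0.0144). Without sham rat 4 the sham value was −1.46 and passed (adjusted p = 0.017).

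miR-125a-5p and miR-125b-5p, the guide strands, were lower on D9 in 14 of 20 rats each. miR-125a-5p had 2097, 3341, 2066 and 2684 CPM in the sham rats on D2 and 3022, 2023, 3158 and 1591 CPM on D9, 2 rats going each way. Its log2 fold change was −0.50 in TBI+ (adjusted p = 0.168), −0.22 in TBI− (adjusted p = 0.525) and −0.01 in sham. miR-125b-5p gave −0.57 (adjusted p = 0.178), −0.56 (adjusted p = 0.123) and −0.05. The scarce arm miR-99b-3p was lower on D9 in 11 of 20 rats, with log2 fold changes of 0.15 in TBI+ and −0.09 in TBI−. For miR-99a-3p, which shares its seed, the estimates were −0.40 in TBI+ and −0.29 in TBI−.

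**Figure D3:**
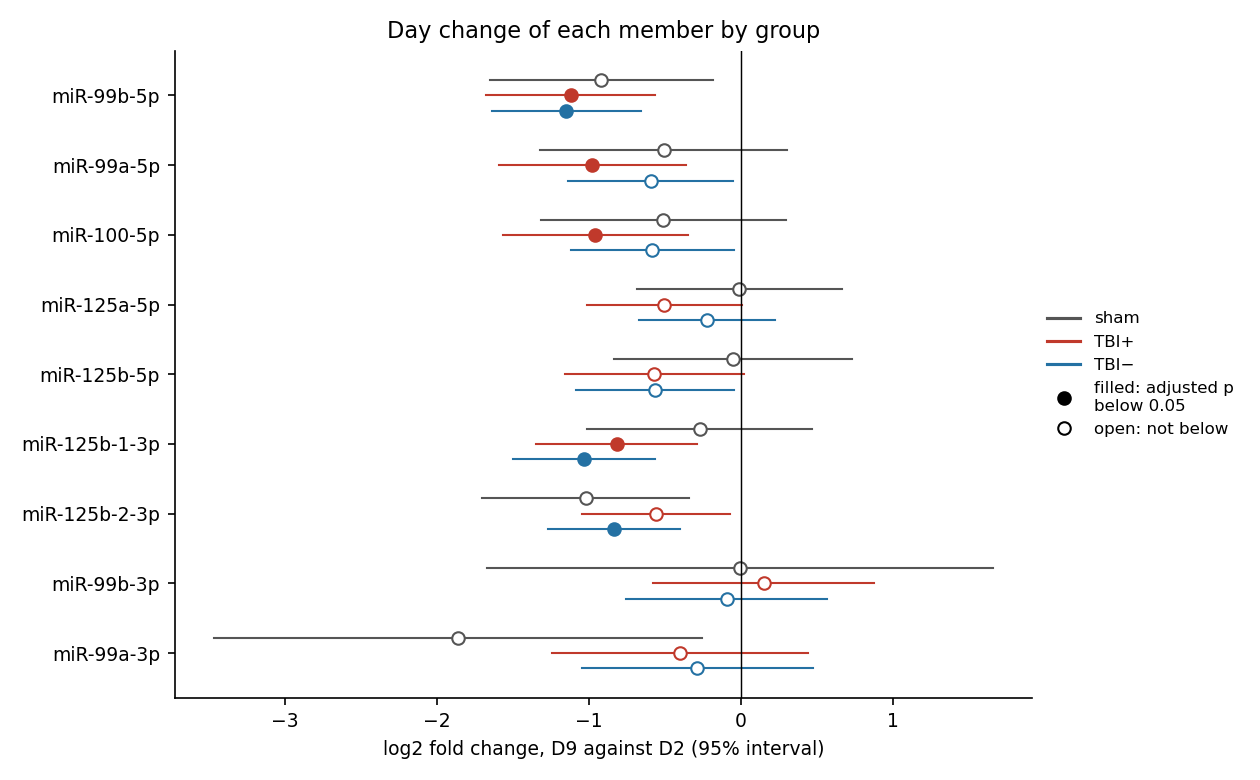
Log2 fold change of D9 against D2 for the members (horizontal axis) with 95% interval, by group, from edgeR. Filled points mark an adjusted p below 0.05 and lie to the left of 0, between −0.82 and −1.15.

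Over both families, 4 of 11 members were downregulated between D2 and D9 in TBI+, where 16.0% of all miRNAs were called and 11.2% were downregulated. The near-identical pair makes 2 of these 4. In TBI−, 3 of 11 members were downregulated, where 20.1% were called and 12.9% were downregulated. These shares include scarce miRNAs that could hardly be called. With filterByExpr, which leaves such miRNAs out, 332 were tested. Then 4 of 10 members were downregulated in TBI+, where 27.1% of miRNAs were called and 54 were downregulated. In TBI− it was 3 of 10, where 33.1% were called and 65 were downregulated. DESeq2 called 5 members in TBI+ (16.9% of all miRNAs), the fifth being miR-125b-2-3p, and 3 in TBI− (22%). In sham, edgeR called 0 of 11 (5.68% of all miRNAs), with 3 at an unadjusted p below 0.05 (17.6% of all miRNAs), and DESeq2 called 0 (8.26%). The median log2 fold change of the members was −0.56 in TBI+, −0.59 in TBI− and −0.51 in sham, against 0.00 over all miRNAs tested in each. With near-identical miRNAs once it was −0.53, −0.68 and −0.28. When leaving out each sham rat the sham median ran from −0.28 to −1.05. With the hemolysis index described below the medians were −0.18, −0.23 and −0.11, against 0.02, 0.02 and −0.11 over all miRNAs. The test of whether the day change differed between TBI and sham called 0 of 11 members (3.61% of all miRNAs), and DESeq2 called 0 (5.16%). At an unadjusted p below 0.05 there were 0 members by edgeR (15.7% of all miRNAs). For miR-99b-5p the difference in day change was −0.22 (95% interval −1.03 to 0.60).

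As a share of all miRNA reads, with the pair counted once, the miR-99/100 5p arms went from 0.567 ± 0.150% on D2 to 0.278 ± 0.0818% on D9 in TBI rats (SD, n = 16). In sham they went from 0.497 ± 0.120% to 0.287 ± 0.0943% (n = 4). The miR-125 5p arms went from 0.375 ± 0.0814% to 0.280 ± 0.0936% in TBI and from 0.346 ± 0.0746% to 0.330 ± 0.108% in sham. Thus both families took nearly equal shares on D9 in TBI, whereas miR-99/100 had the larger on D2.

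Several technical measures moved with the days. Because D2 and D9 libraries of a rat are paired by the labels, the rat was added as a block, after which 3 members were called in TBI+ (13.4% of all miRNAs) and 5 in TBI− (17.7%). miR-125b-1-3p in TBI+ was lost (log2 fold change −0.80, adjusted p = 0.0865), and the pair was gained in TBI− (−0.68 for miR-100-5p, adjusted p = 0.0413, and −0.69 for miR-99a-5p, adjusted p = 0.0362). With the run of library numbers as a covariate, 1 member was called in TBI+ (miR-99b-5p −1.08, adjusted p = 0.0135), 2 in TBI− (miR-99b-5p −0.94, adjusted p = 0.0135, and miR-125b-1-3p −0.89, adjusted p = 0.0274) and 1 in sham (miR-125b-2-3p −1.58, adjusted p = 0.0451), beside 9.64%, 10.2% and 1.03% of all miRNAs. All 4 sham D2 libraries belong to 1 run and all 4 sham D9 libraries to another, so that day and run cannot be told apart within sham, and the run-adjusted sham value takes its run effects from the TBI libraries. Without the TBI− libraries under 500000 reads 6 members were called in TBI− (19.2% of all miRNAs), the added 3 being miR-100-5p (−0.93, adjusted p = 0.0103), miR-99a-5p (−0.95, adjusted p = 0.0101) and miR-125b-5p (−0.75, adjusted p = 0.0417).

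The hemolysis index, log2 of miR-451-5p over miR-23a-3p, is used to judge red cell rupture in plasma, since miR-451 is a red cell miRNA. The authors had checked the sequenced plasma for hemolysis by eye and by hemoglobin absorbance. All 20 D9 libraries lay above the D2 median of the index, so a fit with it can hardly tell index and day apart. The index was higher on D9 in 20 of 20 rats, going from −0.525 ± 0.656 to 1.13 ± 0.227 in sham (SD, n = 4) and from −0.276 ± 0.645 to 1.28 ± 0.626 in TBI (n = 16). Its parts did not move alike in the groups. miR-451-5p had a mean of 3343 CPM on D2 and 5874 CPM on D9 in TBI, and was upregulated in TBI+ (log2 fold change 0.98, adjusted p = 0.0427), with 0.76 in TBI− (adjusted p = 0.0721) and 0.15 in sham (adjusted p = 0.997). miR-23a-3p (rno-miR-23a-3p) had 3734 and 2205 CPM, and was downregulated in TBI+ (−0.72, adjusted p = 0.0414), in TBI− (−0.77, adjusted p = 0.00963) and in sham (−1.37, adjusted p = 0.00847). With the index as a covariate 0 members were called in either injured group, where calls over all miRNAs also went down, to 4.99% in TBI+ and 5.34% in TBI−. miR-99b-5p then gave −0.71 (adjusted p = 0.261) in TBI+ and −0.76 (adjusted p = 0.161) in TBI−. With miR-451-5p alone as a covariate, miR-99b-5p gave −1.15 (adjusted p = 0.00327) and −1.18 (adjusted p = 0.000554), and 1 and 3 members were called, beside 16.2% and 17.7% of all miRNAs.

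**Figure D4:**
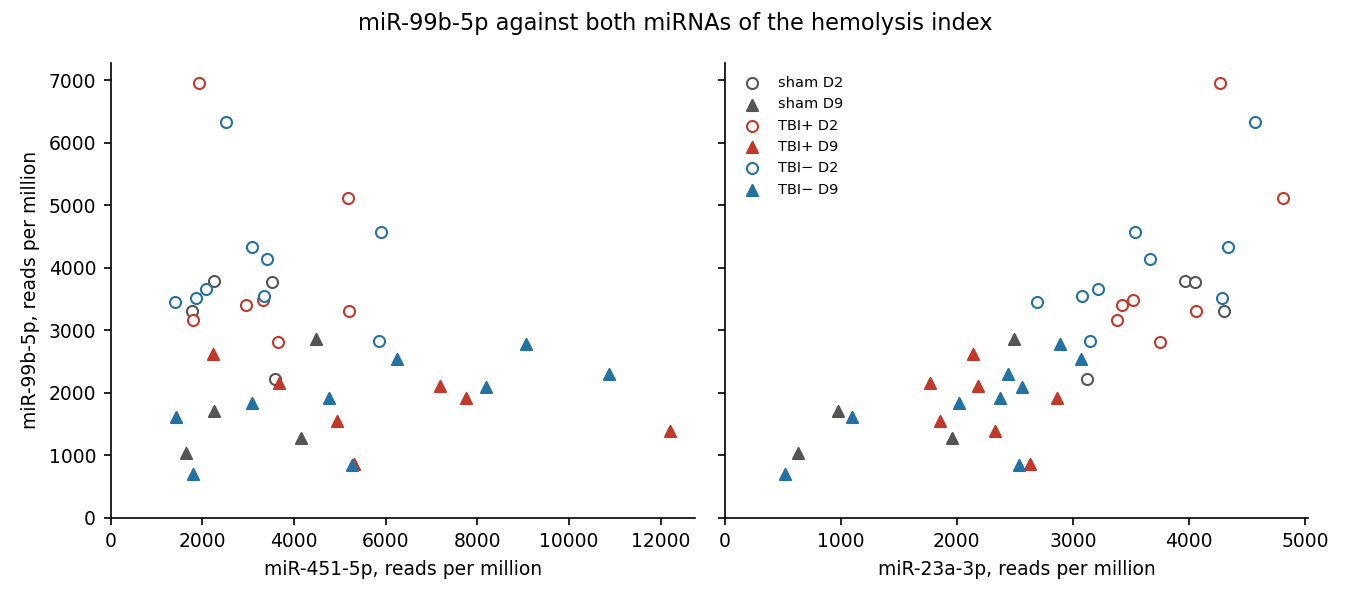
miR-99b-5p (vertical axis, CPM) in the 40 libraries against miR-451-5p (left) and miR-23a-3p (right), both in CPM. Open circles are D2 and filled triangles D9, and colors mark sham, TBI+ and TBI−. D9 libraries are low in both miR-99b-5p and miR-23a-3p, and spread widely along miR-451-5p.

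Markers of other sources moved between the days too, and their part in the member changes was not tested beyond these covariates. All 4 counted red cell markers had reads, led by miR-16-5p, with a summed level of 27835 ± 9571 CPM on D2 and 41947 ± 15609 CPM on D9 in TBI (n = 16), and 25893 ± 4332 and 28281 ± 15046 CPM in sham (n = 4). Of these, 2 were upregulated in TBI+ and 1 in TBI−. Of 6 neuronal markers 5 had reads, with miR-128-3p the most abundant and miR-9a-3p at 0, and their sum went from 9560 to 5897 CPM in TBI+, from 5638 to 6365 CPM in TBI− and from 6319 to 2661 CPM in sham. Of these, 3 were downregulated in each injured group and 1 in sham, miR-128-3p (log2 fold change −1.25, adjusted p = 0.0293). The platelet sum, from 3 of 4 markers led by miR-191a-5p, went from 39669 to 49151 CPM in TBI and from 43292 to 34977 CPM in sham, and 2 platelet markers were upregulated in TBI−. The liver marker miR-192-5p went from 34958 to 68685 CPM in sham (log2 fold change 0.98, adjusted p = 0.293), from 37459 to 69061 CPM in TBI+ (0.92, adjusted p = 0.0853) and from 51475 to 54996 CPM in TBI− (0.06, adjusted p = 0.965). Of the muscle markers, miR-206-3p had 11 reads in all. The other liver and muscle markers, miR-122-5p, miR-1-3p and miR-133a-3p, were at 0, as were miR-9a-3p and the platelet marker miR-126a-5p. All 5 belong to the 88 miRNAs with an opposite-strand partner at every listed copy, so that these zeros do not show that the miRNAs were absent from plasma.

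The balance between the arms of Mir99b does not depend on scaling between libraries, because both counts come from the same library. It was taken as log2 of miR-99b-3p over miR-99b-5p reads, with 0.5 added to each count, and compared by exact two-sided tests. On D2 it was −8.17 ± 0.477 in TBI (SD, n = 16) and −9.06 ± 0.519 in sham (n = 4), a difference of 0.90 (exact permutation test p = 0.00454, adjusted over 20 ratio tests p = 0.0454). This call was lost without any 1 of the sham rats, and with 1 added in place of 0.5 (difference 0.79, adjusted exact p = 0.0681). Within 1 run the difference was 0.95 (exact permutation p = 0.0571), where 4 rats against 4 allow no p below 0.0286 before adjustment, so the lost call says nothing about the size of the difference. Between the days the arm ratio rose in 15 of 16 TBI rats, by 1.11 on average (exact sign-flip test p = 0.000336, adjusted p = 0.00671). Over the same rats miR-99b-5p was lower on D9 in 16 of 16 and miR-99b-3p in 8 of 16. In sham the mean arm ratio was −9.06 on D2 and −8.07 on D9 (n = 4), a change that was not tested. In sham rats 1 and 3 miR-99b-3p had 0 reads on D9. Their D9 ratios of −8.92 and −8.70 were thus set by the added 0.5 and the reads of miR-99b-5p. On D9 the difference between TBI and sham was 1.02 (exact permutation p = 0.0535, adjusted p = 0.184), and it rests on the same sham values.

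The remaining 17 ratio tests gave adjusted p-values of 0.131 or more. Among them was the ratio of the paralogs miR-125a-5p and miR-125b-5p, whose log2 was higher in TBI than in sham by 0.33 on D2 (exact permutation p = 0.0196, adjusted p = 0.131) and by 0.44 on D9 (exact permutation p = 0.0349, adjusted p = 0.174). Neither held after adjustment.

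miR-99b-5p and miR-125a-5p come from hairpins less than 1 kb apart, yet their plasma reads did not keep 1 ratio. Reads of miR-99b-5p per read of miR-125a-5p had a median of 1.27 on D2 and 0.599 on D9 in sham, 1.29 and 0.892 in TBI+, and 1.43 and 0.741 in TBI−. The ratio was lower on D9 in 3 of 4 sham, 7 of 7 TBI+ and 8 of 9 TBI− rats. It was singled out after its values had been seen and is given without a test.

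**Figure D5:**
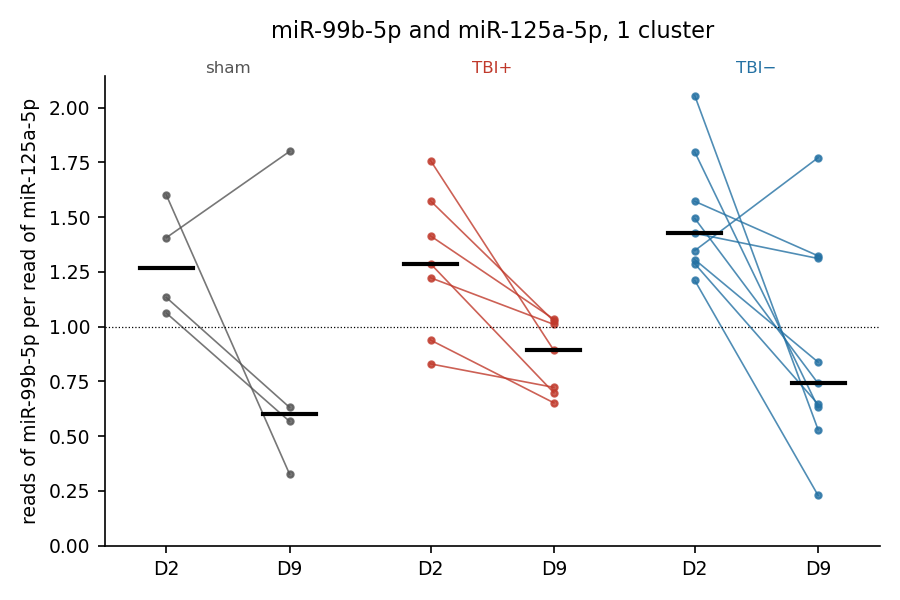
Reads of miR-99b-5p per read of miR-125a-5p (vertical axis) on D2 and D9, with a line per rat, a black bar at the group median and a dotted line at a ratio of 1. Group medians run from 1.27 to 1.43 on D2, and from 0.599 to 0.892 on D9.

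Among the members with a mean of at least 10 reads, Spearman's rho of log2 CPM over the 40 libraries had a median of 0.39 over 28 pairs, with the near-identical pair taken once, and ran from 0.03 to 0.88. The libraries share 2 days, depth and scaling, so these values only describe. The highest rho, 0.88, joined miR-125b-5p with the near-identical pair miR-99a-5p and miR-100-5p. Since these rows cannot be told apart and miR-125b-5p has a gene beside each, the value cannot be assigned to 1 cluster. miR-99b-5p and its cluster neighbor miR-125a-5p had 0.46 over the 40 libraries, and 0.73 within D2 and 0.19 within D9. Both arms of Mir99b had 0.12.

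Outside the families, the miRNAs whose level followed miR-99b-5p most closely among 265 compared were miR-107-3p (rho 0.86), miR-103-3p (0.86) and miR-23b-3p (0.86). Within D2 rho was 0.58, 0.57 and 0.62 for these, and within D9 0.57, 0.58 and 0.45. For miR-125a-5p they were miR-450b-5p (0.71), miR-450a-5p (0.71) and miR-10a-5p (0.68). For miR-99b-3p they were miR-27b-3p (0.46), miR-27a-3p (0.43) and miR-28-5p (0.39). Within D2 these 3 had 0.28, 0.27 and −0.03, and within D9 0.46, 0.43 and 0.46. miR-23b-3p and miR-23a-3p are near-identical rows, as are miR-27b-3p and miR-27a-3p, and miR-10a-5p and miR-10b-5p.

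Of the let-7 partners from the same clusters, 5 had reads and 0 were downregulated between the days by edgeR in any group. In TBI− 1 was upregulated, and in the other 2 groups 0. Of all miRNAs, 16.0% were called in TBI+, 20.1% in TBI− and 5.68% in sham, with 11.2% downregulated in TBI+ and 12.9% in TBI−. Scarce among the partners were let-7c-1-3p with 107 reads in all and let-7a-2-3p with 7. let-7a-5p, which represses growth genes, was upregulated in TBI− from 15981 ± 4996 CPM on D2 to 25338 ± 5993 CPM on D9 (SD, n = 9; log2 fold change 0.65, SE 0.21, adjusted p = 0.0216), but also comes from genes outside these clusters. The call was lost with the hemolysis index (0.25, adjusted p = 0.704), with the run (0.35, adjusted p = 0.435) or without the TBI− libraries under 500000 reads (0.57, adjusted p = 0.0844). In sham let-7a-5p was lower on D9 in 4 of 4 rats (log2 fold change −0.58, adjusted p = 0.327 by edgeR). Its day change differed between TBI and sham by 1.08, which did not pass (adjusted p = 0.0718 by edgeR). let-7c-5p gave 0.47 (adjusted p = 0.085) in TBI−. let-7e-3p, encoded between Mir99b and Mir125a, gave −1.08 (adjusted p = 0.0521) in TBI−, and −1.23 (adjusted p = 0.0352) without those libraries. In TBI− it was called in 4 of 10 alternatives. By edgeR it gave −1.07 in TBI+ (adjusted p = 0.108) and −1.30 in sham (adjusted p = 0.395), and it was lower on D9 in 16 of 20 rats.

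miR-351-5p, which shares the miR-125 seed printed above, was called after injury on D2, whereas the miR-125 5p arms were not. On D2 it had a mean of 2493 ± 699 CPM in sham (SD, n = 4, 1695 to 3357) and 1322 ± 341 CPM in TBI (n = 16, 852 to 2234). It was downregulated in TBI (log2 fold change −0.80, SE 0.20, adjusted p = 0.0124) and in TBI− (−0.85, adjusted p = 0.0194), while TBI+ gave −0.75 (adjusted p = 0.0861). Without sham rat 2 the value for TBI was −0.57 (adjusted p = 0.154), and within 1 run it was −0.72 (adjusted p = 0.067). On D9 the log2 fold change was −0.97 (adjusted p = 0.0806), and the call was made in 6 of 13 alternatives, among them DESeq2 (−1.19, adjusted p = 0.0263) and library totals (−1.08, adjusted p = 0.0447). It was −0.47 with miR-451-5p as a covariate and −0.64 without sham rat 3, neither called, with adjusted p-values from 0.0244 to 0.843 over all 13. Whether miR-351-5p differed from miR-125a-5p or miR-125b-5p in this response was not tested.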

How the data were processed

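Plasma RNA (miRNeasy) was made into TruSeq Small RNA libraries read as 51-nt single reads. Per the labels and methods, the authors checked reads with FastQC (11.8), trimmed them with Trimmomatic (0.36), aligned them with Bowtie2 to the Rno6 build and counted them per mature miRNA with featureCounts, and the deposited values are raw read counts, 752 miRNAs by 40 libraries. No strand setting is given in the sources used here. Coordinates and sequences here are RefSeq GRCr8 and were matched by name (685 of 752), never by position.

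CPM is the count over the library total times 1000000. edgeR 4.0.16 (R 4.3.3; TMM, quasi-likelihood test, Benjamini-Hochberg over all miRNAs with a read) was fitted per day for group comparisons, over 565 miRNAs on D2 and 541 on D9, and over all 40 libraries (581 miRNAs) for day changes. Ratios used exact tests with BH over 20. Named miRNAs were the members, let-7 rows of the same clusters, seed sharers, cell markers and the 3 closest in rho. The scripts were tested on simulated data. The members and lists were chosen with earlier results of these data known. Alternatives were DESeq2 1.42.0, RLE, library totals only, filterByExpr, near-identical miRNAs once, covariates, replicate blocks, 1 run, and leaving out each sham rat. Alternatives chosen after seeing the data were the run and miR-451-5p covariates and leaving out libraries under 500000 reads. The same rat gives the D2 and D9 pairing. Deviations of a rat from its group means correlated between days by a median of −0.057 (4 of 20 above 0.1). miR-486, a red cell marker, was not analysed here.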

Additional observations from a re-analysis of the deposited data

Results flagged for a closer look

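A sample was singled out when its gap to the nearest other sample of its group took up more of the group's range than Dixon's 95% limit allows. Over 66 groups of 4 to 9 libraries, 8 values stood out, where chance gives about 3.3. For abundant members, miR-99b-5p was at 6324 CPM in TBI− rat 4 on D2, with the other 8 rats between 2820 and 4573 CPM. miR-125b-5p was at 1149.5 CPM in sham rat 2 on D2, the other 3 at 821 to 838 CPM, and at 1423 CPM in TBI+ rat 7 on D2, the other 6 at 597 to 929.9 CPM. miR-125b-2-3p was at 204 CPM in sham rat 4 on D9, the other 3 at 78.2 to 84.1 CPM. For scarce arms, miR-125a-3p was at 12.99 CPM (17 reads) in sham rat 2 on D2, the others at 5.05 to 5.96 CPM, and at 30.8 CPM (5 reads) in the same rat on D9, the others at 0 to 2.79 CPM. miR-100-3p was at 5.05 CPM (3 reads) in sham rat 1 and at 3.97 CPM (2 reads) in TBI+ rat 4, both on D2. The causes were not tested.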

How the results depend on the processing

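No called fold change or ratio changed direction under the alternatives run for it. The members called on D2 went from 0 to 1, miR-99b-3p each time, in TBI against sham with DESeq2, RLE size factors, filterByExpr, near-identical miRNAs once, the hemolysis index or miR-451-5p as covariate, or without libraries under 500000 reads (0 to 1 when leaving out each sham rat), in TBI+ with DESeq2, filterByExpr and RLE (1 each), and in TBI− with DESeq2 and filterByExpr (1 each). Between the days, sham went from 0 to 1 (miR-125b-2-3p) with filterByExpr, the run or miR-451-5p as covariate (0 to 1 when leaving out each sham rat). TBI+ went from 4 to 0 with the index and to 1 with the run or miR-451-5p. TBI− went from 3 to 0 with the index, to 5 with the rat as replicate block and to 6 without libraries under 500000 reads. The D2 arm ratio of Mir99b went from 0.90 to 0.787 with 1 added, to 0.954 within 1 run (where 4 rats against 4 allow no p below 0.0286), and to 0.651 to 1.04 when leaving out each sham rat. Besides these 23 counts of calls and 6 ratios, all others kept to within 1.5 times or to their side of the threshold. For single miRNAs 195 values did, 40 gained and 23 lost a call. The causes were not tested.

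Counts over all miRNAs moved by more than 1.5 times in some settings: on D9 without sham rat 2, from 19, 10 and 26 to 0, 0 and 0 for TBI, TBI+ and TBI−, and with animal number as block to 7, 4 and 6. On D2 they went from 35, 18 and 35 to 21, 11 and 23 without sham rat 1. D9 also gave 17 for TBI− without sham rat 1, and for TBI+ 3 with filterByExpr and 16 with RLE. DESeq2 gave 34 for TBI+ on D2, and the block 3 in place of 0 for TBI+ against TBI− on D2. Between the days, the index took TBI+ from 93 to 29 and TBI− from 42 upregulated and 75 downregulated miRNAs to 31 called, and the run to 56 and 59. Sham went from 33 to 6 with the run, 2 without sham rat 2 and 15 without sham rat 3, and the test of unequal day change from 21 to 3 with the run and 10 to 12 when leaving out sham rats. Animal numbers of different groups share only a number: same-number libraries did not all correlate above 0.1, and under that block miR-99b-3p on D2 had an adjusted p of 0.243. Scaling shifted D9 TBI against sham: the median of all miRNAs was 0.30 with TMM, 0.18 with library totals and 0.12 with RLE, and that of the members −0.01, −0.13 and −0.20. Both were below 0 with filterByExpr (−0.04 and −0.17) and DESeq2 (−0.38 and −0.31). Calls higher and lower were 6 and 13 with TMM, 4 and 19 with totals, and 4 and 21 with RLE there, 7 and 19 against 3 and 21 (RLE) for TBI− on D9, 13 and 5 against 12 and 8 (totals) for TBI+ on D2, 15 and 18 against 20 and 11 (RLE) for sham between the days, and 10 and 11 against 5 and 16 (RLE) for the unequal day change. Depth limited the sham D9 libraries, above all for the 3p arms.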
